A study of Mus musculus with 6 samples.

Results

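The RGS gene cluster on mouse chromosome 1 holds Rgs2, Rgs13, Rgs1, Rgs21 and Rgs18, which all belong to the R4 subfamily of regulators of G protein signalling. These 5 of the 52636 gene rows of the count table were followed in medullary thymic epithelial cells (mTEC). The cluster was chosen by its position in the genome and from expression differences already seen between the same sorted populations, so the values that compare them are a description and carry no test. RNA was sequenced from thymic mTEC of 6-week-old C57BL/6 mice, with no transgene or treatment named for either group. Both populations were UEA+ and MHCIIlo and were negative for CD80, Sca1 and CD63. The tuft-like mTEC were positive for CD117 (the Kit receptor) and CD66a (Ceacam1), whereas the non-tuft-like mTEC lacked both proteins at the surface. Each group had 3 libraries, and the labels do not say whether they came from separate mice, so that p-values measure only the spread between these libraries. The gate was set on surface protein and not on a lineage reporter, so each library averages every cell that met it. Fewer cells of a type and less RNA per cell cannot be told apart in such bulk libraries.

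RGS proteins accelerate GTP hydrolysis by the alpha subunits of heterotrimeric G proteins and thereby shorten the signal that a G protein-coupled receptor sends into the cell. R4 proteins are small and consist of little more than the RGS domain, which acts on alpha subunits of the Gi and Gq families. Tuft cells are chemosensory epithelial cells that use a taste receptor cascade built on the G protein alpha-gustducin (Gnat3) and the cation channel Trpm5. Rgs21 is known from taste receptor cells, Rgs13 from germinal centre B cells and mast cells, Rgs18 from platelets and megakaryocytes, and Rgs1 from lymphocytes, while Rgs2 is widely expressed and is induced by receptor signals.

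All 5 genes lay on the minus strand of chromosome 1 (mm10) within 776098 bp. In the order of rising coordinates they were Rgs2 (ENSMUSG00000026360, chr1:143999338-144004161), Rgs13 (ENSMUSG00000051079, chr1:144138654-144177372), Rgs1 (ENSMUSG00000026358, chr1:144242296-144249242), Rgs21 (ENSMUSG00000098509, chr1:144516648-144567667) and Rgs18 (ENSMUSG00000026357, chr1:144752683-144775435). The gaps between neighbouring members were 134492, 64923, 267405 and 185015 bp. The longest coding transcript of Rgs13 had 6 exons and that of each other member had 5. Their coding sequences spanned 152 codons in Rgs21, 158 in Rgs13, 209 in Rgs1, 211 in Rgs2 and 235 in Rgs18. No annotated gene overlapped a member, and the longest stretch that a member shared with any of 19 other RGS transcripts was 23 bases, between Rgs1 and Rgs2.

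Promoters are shown for Rgs2, Rgs13 and Rgs21, the 3 of 5 members matched in the RefSeq (GRCm38.p6) promoter table used here, which are also the 3 with the high tuft-like levels described below. The promoters of Rgs1 and Rgs18 were not analysed here, so no contrast with them is drawn, and the 250 bases before each are given 5′ to 3′ on the minus strand. Capitals mark matches, on either strand, to the POU octamer ATGCAAAT, its core ATGCAA, the cAMP response element TGACGTCA, the GC box GGGCGG and the CCAAT box.
Rgs2 (chr1:144004150-144004399): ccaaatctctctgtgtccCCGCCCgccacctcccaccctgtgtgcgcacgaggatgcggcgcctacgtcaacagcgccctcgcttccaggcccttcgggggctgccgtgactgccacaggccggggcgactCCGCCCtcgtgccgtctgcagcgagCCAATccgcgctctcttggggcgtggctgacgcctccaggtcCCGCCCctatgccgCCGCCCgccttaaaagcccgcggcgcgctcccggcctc
Rgs13 (chr1:144177373-144177622): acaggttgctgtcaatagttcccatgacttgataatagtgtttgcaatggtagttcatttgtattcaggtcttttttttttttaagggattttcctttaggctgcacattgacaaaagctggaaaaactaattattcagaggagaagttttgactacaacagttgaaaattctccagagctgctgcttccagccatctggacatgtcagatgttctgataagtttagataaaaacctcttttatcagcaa
Rgs21 (chr1:144567668-144567917): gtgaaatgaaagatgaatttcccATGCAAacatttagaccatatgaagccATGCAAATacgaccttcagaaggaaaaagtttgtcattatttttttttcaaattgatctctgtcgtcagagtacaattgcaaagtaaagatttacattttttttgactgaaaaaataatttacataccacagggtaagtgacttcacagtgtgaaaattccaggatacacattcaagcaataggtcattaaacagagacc

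The 3 windows differed in base composition. Rgs2 had a GC content of 72.4%, above that of 93.5% of the 32817 mouse promoter windows of this length, whereas the GC content of Rgs13 was 36.0% and that of Rgs21 was 32.8%, with 5.81% and 2.92% of windows lower. The window of Rgs2 held 4 GC boxes, all read on the opposite strand, at positions -232, -119, -52 and -38 relative to the start site, and 1 CCAAT box at -94. A GC box was present in 32.7% of all windows and a CCAAT box in 33.8%. The octamer, which POU factors bind, occurred once in the window of Rgs21 at -200, with another copy of its core at -227. All windows contained the octamer in 1.60% of cases and the core, which the octamer includes, in 9.46%. The cAMP response element was in 1.55% of windows and in none of these 3, and the window of Rgs13 held none of the letters searched. These matches describe the printed letters and do not show that a factor binds.

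The libraries held between 20097617 and 48369825 counts assigned to genes. The share of reads assigned to no gene ranged from 34.4% to 52.5% in non-tuft-like and from 19.7% to 61.6% in tuft-like libraries, and was lowest in tuft-like replicate 3, which also had the fewest genes with a count. Tuft genes followed the labels. All tuft-like values lay above all non-tuft-like values for 10 of 10 markers such as Dclk1, Trpm5 and Pou2f3 (7.18% of all genes tested). Their summed level was 10889 to 17954 counts scaled to a library total of 1000000 (CPM) in tuft-like against 683 to 882 in non-tuft-like libraries. Among these markers the non-tuft-like mean was between 1.44% (Sh2d6) and 22.5% (Pou2f3) of the tuft-like mean. Epithelial markers summed to at least 5343 CPM in every library. All CPM values below were normalized with trimmed mean of M-values (TMM) factors, which were 0.974, 0.973 and 1.10 in the non-tuft-like and 1.21, 1.0 and 0.789 in the tuft-like libraries, replicates 1 to 3.

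Rgs13, Rgs2 and Rgs21 were abundant and higher in every tuft-like library than in any non-tuft-like library, whereas Rgs1 was low and overlapped between the groups. Rgs18 had 0 to 28 counts per library and also overlapped.

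Rgs13, the member with the highest tuft-like level, encodes an inhibitor of Gi and Gq signalling. It had 552.1, 747.5 and 820.2 CPM in tuft-like replicates 1, 2 and 3, where the non-tuft-like libraries had 27.0, 23.3 and 10.8 CPM. All tuft-like values were high and the lowest of them was 20.4 times the highest non-tuft-like value. The means were 706.6 ± 138.6 and 20.4 ± 8.51 CPM (SD, n = 3), a ratio of 34.7, and the edgeR fit gave a log2 fold change of 5.12 with a standard error (SE) of 0.44. The non-tuft-like mean thus stood at 2.88% of the tuft-like mean, within the range of the 10 tuft markers. Scaled to library size alone, the tuft-like replicates had 664.7, 746.7 and 646.6 CPM, so that the top place of replicate 3 came from its TMM factor.

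Rgs21, known as a regulator in taste receptor cells and the shortest protein of the cluster, had 147.5, 206.8 and 327.0 CPM in the tuft-like and 24.5, 32.1 and 17.9 CPM in the non-tuft-like libraries. The groups did not overlap, and the lowest tuft-like value was 4.60 times the highest non-tuft-like value. The means of 227.1 ± 91.4 and 24.8 ± 7.07 CPM (SD, n = 3) differed 9.14 times, with a fitted log2 fold change of 3.19 (SE 0.38). Non-tuft-like mTEC held 10.9% of the tuft-like mean.

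Rgs2, whose protein acts mainly on Gq, had 294.6, 341.6 and 582.8 CPM in the tuft-like and 96.6, 113.3 and 92.7 in the non-tuft-like libraries. Its non-tuft-like level was the highest of the cluster and varied little, and the lowest tuft-like value was 2.60 times the highest non-tuft-like value. The means were 406.3 ± 154.6 and 100.8 ± 11.0 CPM (SD, n = 3), a ratio of 4.03 and a log2 fold change of 2.01 (SE 0.33). Non-tuft-like mTEC kept 24.8% of the tuft-like mean, the largest share among these 3 genes.

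Rgs1, a regulator of lymphocyte migration in the immune system, had 5.08, 2.86 and 2.26 CPM in the tuft-like and 5.11, 2.79 and 1.88 in the non-tuft-like libraries. The groups overlapped throughout, with means of 3.40 ± 1.48 and 3.26 ± 1.67 CPM (SD, n = 3) and a log2 fold change of 0.06 (SE 1.06). Behind these values stood 59 to 162 counts per library.

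Rgs18, a brake on platelet activation, had 28, 1 and 0 counts in tuft-like replicates 1, 2 and 3, and the non-tuft-like libraries had 0, 25 and 18. The corresponding levels were 1.16, 0.0292 and 0 CPM against 0, 0.532 and 0.572 CPM. A library of either group had none, which allows up to 3 counts there (counting error only). The log2 fold change of 0.09 had an SE of 2.38, so that a difference was not detectable with these libraries.

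**Figure D1:**
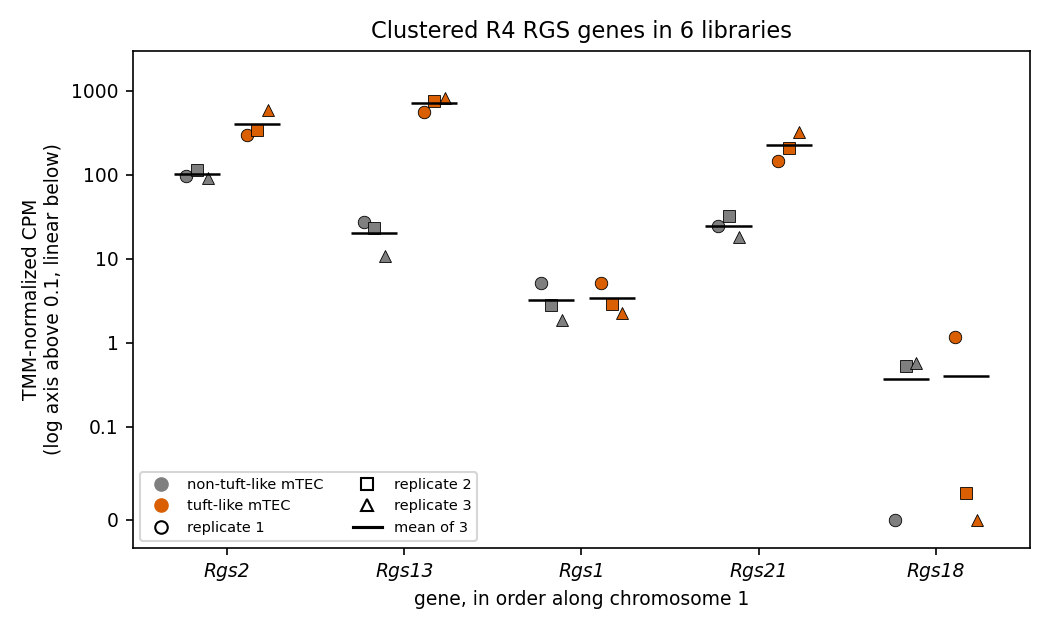
Levels of the 5 cluster genes in each library (TMM-normalized CPM, log axis above 0.1 and linear below), with 1 point per replicate and the mean of each group as a horizontal line. Rgs13, Rgs2 and Rgs21 separate the groups, with lowest tuft-like values of 552.1, 294.6 and 147.5 CPM, while the points of Rgs1 and Rgs18 intermingle.

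The same fit called 3 of the 5 members (Rgs13, Rgs21 and Rgs2) higher at a false discovery rate (FDR) of 0.05, where 2.11% of all 32496 genes tested were called, 1.16% as higher and 0.951% as lower. The libraries of the groups did not overlap for the same 3 members, all with tuft-like higher, against 16.0% of all genes in either direction and 7.18% with tuft-like higher. As the contrast was known when the cluster was chosen, nothing is read from these counts. The other settings tried called the same number of members while calling 2.41% (relative log expression factors), 3.22% (library size alone), 10.6% (DESeq2), 3.80% (likelihood ratio test), 2.78% (limma voom), 2.36% (no filter), 3.76% (at least 1 CPM in 3 libraries) and 2.27% (replicate block) of the genes they tested. Rgs2 fell short of the threshold when non-tuft-like replicate 1 was left out (log2 fold change 1.96, 1.42% of genes called) or replicate 2 (2.11, 1.03% called).

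Per kilobase of exon, which allows genes to be compared, the order in tuft-like mTEC was Rgs13 (427 ± 83.8 CPM per kb), Rgs2 (112 ± 42.6), Rgs21 (57.6 ± 23.2), Rgs1 (0.490 ± 0.214) and Rgs18 (0.195 ± 0.325; SD, n = 3). In non-tuft-like mTEC Rgs2 led with 27.8 ± 3.02 CPM per kb, followed by Rgs13 with 12.3 ± 5.14, Rgs21 with 6.30 ± 1.79, Rgs1 with 0.469 ± 0.240 and Rgs18 with 0.181 ± 0.157. Rgs13 and Rgs2 therefore exchanged the first place between the populations. Rgs13 exceeded Rgs2 in each tuft-like library (333.6, 451.6 and 495.6 against 81.2, 94.2 and 160.7 CPM per kb). Rgs21 was below Rgs2 in each library, at 37.4, 52.5 and 83.0 CPM per kb in the tuft-like replicates. The lengths were the union of all annotated exons. With the longest coding transcript instead, tuft-like Rgs21 reached 135.7 and Rgs2 134.5 CPM per kb, so the order of these neighbours depends on the gene model. The same holds in non-tuft-like mTEC for Rgs13 and Rgs21, since that length placed Rgs21 above Rgs13, with Rgs2 still first of the cluster. Rgs1 and Rgs18 were within the spread of their own replicates.

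Olfactory receptor genes served as a yardstick for low levels. Their mean ranged from 0.0666 (tuft-like replicate 3) to 0.644 CPM per kb (tuft-like replicate 1). It ranked the libraries as their share of reads assigned to no gene did, which was 19.7% and 61.6% in those replicates. How much of this level was transcription in mTEC was not tested. The 99th percentile of 1134 such genes lay between 1.24 and 2.75 CPM per kb in the 6 libraries. Rgs2, Rgs13 and Rgs21 were above it in every library, by at least 9.43, 2.40 and 1.68 times respectively. Rgs1 and Rgs18 never reached it, with at most 0.424 and 0.207 of that percentile. For Rgs1 the union of exons was its whole span of 6947 bp, against 3841 bp for the longest coding transcript. Its fraction of the percentile therefore depends on the gene model and would be larger with the shorter length.

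Ratios of counts taken within a library do not depend on normalization. Rgs13 had 3.74, 3.61 and 2.51 counts for each Rgs21 count in tuft-like replicates 1, 2 and 3, where the non-tuft-like libraries had 1.10, 0.727 and 0.601. Relative to Rgs2 it had 1.87, 2.19 and 1.41 counts in tuft-like against 0.280, 0.206 and 0.116 in non-tuft-like libraries. Rgs21 relative to Rgs2 changed least, from 0.254, 0.283 and 0.193 to 0.501, 0.605 and 0.561. The groups did not overlap in any of these 3 ratios, so the members differed unequally between the populations.

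The cluster took up most of the RGS transcripts of tuft-like mTEC. Of the summed CPM per kb of 20 RGS genes, the 5 members made up 77.8%, 82.1% and 76.6% in tuft-like and 15.0%, 18.5% and 14.5% in non-tuft-like replicates, or 78.9 ± 2.88% against 16.0 ± 2.16% (SD, n = 3). Rgs13 ranked 6 in non-tuft-like and 1 in tuft-like mTEC, with a share of 56.9 ± 5.31% in the latter and 4.09 ± 1.34% in the former. Rgs2 ranked 2 in both, with shares of 14.5 ± 1.93% and 9.57 ± 1.38%. Rgs21 ranked 9 in non-tuft-like (2.15 ± 0.553%) and 4 in tuft-like mTEC (7.41 ± 1.10%), whereas Rgs1 and Rgs18 were 19 and 20 in both populations. These ranks used the union of exons. With the length of the longest coding transcript, Rgs21 ranked 2 with 13.7 ± 1.88% and Rgs2 ranked 3 with 13.7 ± 1.67% in tuft-like mTEC. Rgs13 stayed at rank 1 there with 47.8 ± 4.88%. This length placed Rgs21 at rank 6 (4.01 ± 0.995%), Rgs13 at rank 9 (3.50 ± 1.21%) and Rgs1 at rank 18 in non-tuft-like mTEC. The cluster made up 75.3 ± 2.36% in tuft-like against 16.9 ± 2.36% in non-tuft-like mTEC. Rgs4, also an R4 member but located outside the cluster, made up 52.9 ± 5.65% of non-tuft-like and 8.48 ± 1.59% of tuft-like RGS transcripts. The summed RGS level was 758.9 ± 192.8 CPM per kb in tuft-like and 293.3 ± 38.2 in non-tuft-like mTEC.

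**Figure D2:**
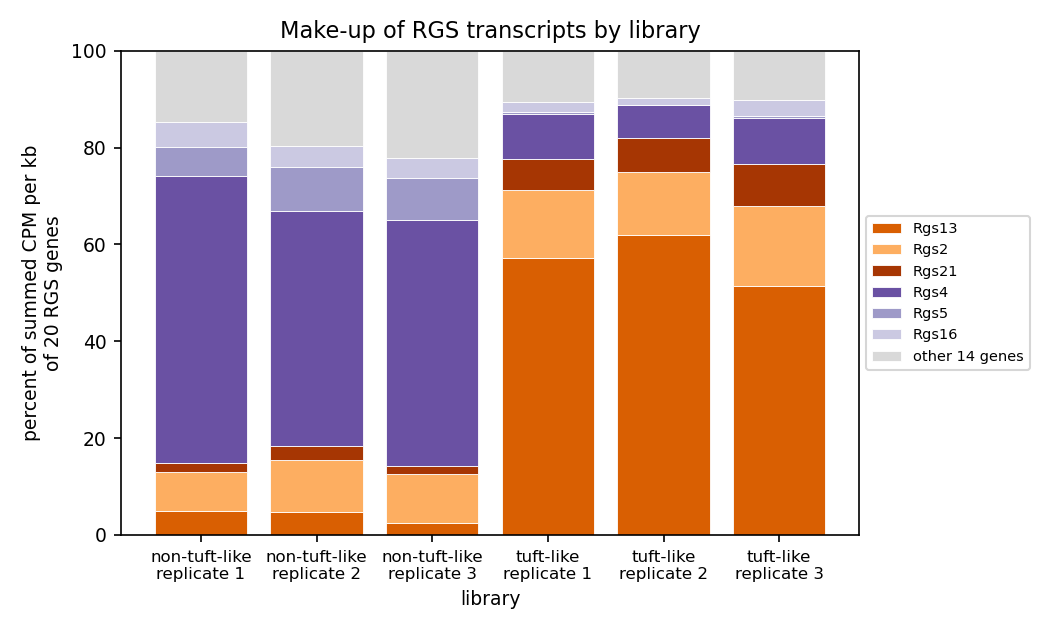
Share of each RGS gene in the summed CPM per kb of 20 RGS genes (percent), stacked for each of the 6 libraries, with Rgs1 and Rgs18 among the other 14 genes in grey. Rgs13 fills 51.4% to 61.9% of the tuft-like bars and 2.55% to 4.92% of the non-tuft-like bars, where Rgs4 is the tallest band.

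Within 1000 kb on either side the annotation had 20 other genes, 10 of which were tested, and edgeR called 0 of them at an FDR of 0.05 (2.11% of all genes), with 0 at an unadjusted p under 0.05 (8.97% of all genes tested) and 0 by DESeq2, the likelihood ratio test or limma voom. With 10 genes tested, 0 calls is near the background share. The 5 protein-coding genes, Cdc73, B3galt2, Glrx2, Trove2 and Uchl5, had log2 fold changes from -0.52 to 0.15 with a median of -0.08, where the median over all genes tested was 0.02. The nearest of them was Uchl5, a proteasome-associated deubiquitinase 191871 bp from Rgs2, with 36.1 ± 12.2 CPM in the tuft-like and 38.2 ± 8.82 in the non-tuft-like libraries (SD, n = 3; log2 fold change -0.08, SE 0.36, edgeR FDR 1.0). On the side of Rgs18 no protein-coding gene lay within this distance. Within the cluster itself Rgs1, at a gap of 64923 bp from Rgs13, stayed below 5.12 CPM in all libraries.

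**Figure D3:**
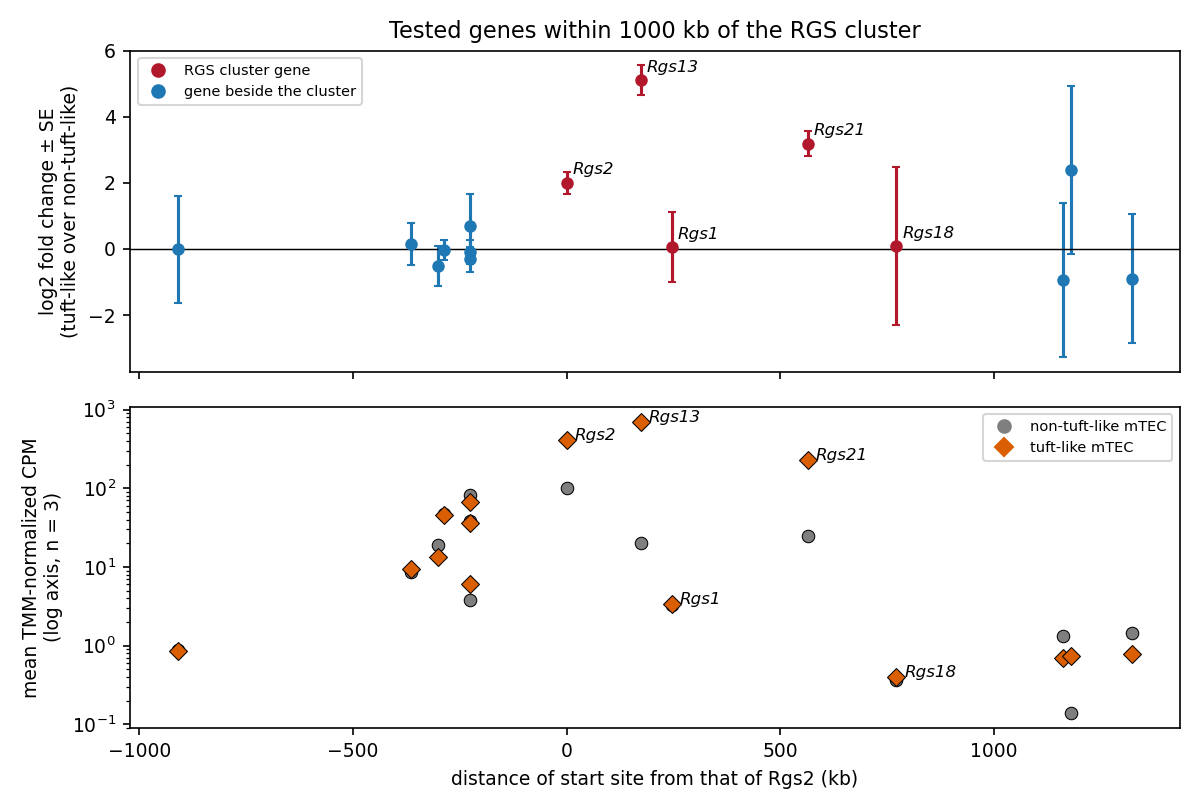
Log2 fold change with its SE (top) and mean TMM-normalized CPM of each group (bottom, log axis, n = 3) for the tested genes within 1000 kb of the cluster, placed by the distance of their start site from that of Rgs2 in kb. Rgs2, Rgs13 and Rgs21 stand at 2.01, 5.12 and 3.19, with Rgs1 (0.06) between Rgs13 and Rgs21, while the coding genes beside the cluster lie between -0.52 and 0.15.

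The other RGS genes showed no common direction. Of 15, all tested, edgeR called 0 higher and 1 lower at an FDR of 0.05, where 2.11% of all genes were called, and 9 had an unadjusted p under 0.05 (8.97% of all genes), 5 of them higher and 4 lower. Their median log2 fold change was 0.27. The gene called was Rgs5, an R4 member known from pericytes, which had 13.7, 3.62 and 19.1 CPM in tuft-like against 91.1, 120.4 and 100.5 CPM in non-tuft-like libraries (log2 fold change -3.10, SE 0.53, edgeR FDR 0.0130). All its tuft-like values lay below all non-tuft-like values, the opposite of Rgs13, Rgs21 and Rgs2. Rgs4 had 168.0, 150.3 and 283.6 CPM in the tuft-like and 609.8, 440.8 and 401.4 in the non-tuft-like libraries, which also did not overlap (-1.27, SE 0.34, edgeR FDR 0.115). Rgs3 and Rgs16, the other abundant R4 genes, had log2 fold changes of -0.18 (SE 0.41) and 0.45 (SE 0.45), both with an edgeR FDR of 1.0. Rgs8, the remaining R4 gene, had 36.0, 38.3 and 14.1 CPM in tuft-like replicates, where the non-tuft-like libraries had 1.83, 16.5 and 1.97 (2.12, SE 0.86, edgeR FDR 0.437). Its groups overlapped, since the lowest tuft-like value lay below that of the second non-tuft-like library, and it was called when that library was left out.

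R7 proteins work in complex with the beta subunit Gnb5 and are best known from neurons and photoreceptors. Rgs7 (3.81 ± 2.31 to 30.6 ± 17.2 CPM, log2 fold change 3.0, SE 0.73, edgeR FDR 0.0759), Rgs9 (1.2, SE 0.32, FDR 0.104) and Rgs11 (1.40, SE 0.42, FDR 0.170) had higher tuft-like means that missed the threshold. DESeq2 called Rgs7, Rgs9 and Rgs11 higher, where it called 10.6% of the genes it tested. Gnb5 and the membrane anchors Rgs7bp and Rgs9bp had log2 fold changes from -0.78 to 0.19, each with an FDR of 1.0. In the R12 subfamily Rgs14, which also binds Ras and Rap, had 63.2 ± 40.3 against 14.1 ± 5.15 CPM (2.17, SE 0.49, edgeR FDR 0.0551), Rgs12 had a log2 fold change of 0.21 (SE 0.26, FDR 1.0) and Rgs10 one of -2.50 (SE 0.99, FDR 0.413). The RZ genes Rgs17 (-1.23, SE 0.40, edgeR FDR 0.238), Rgs19 (0.27, SE 0.43, FDR 1.0) and Rgs20 (-0.92, SE 0.55, FDR 0.873) were not called.

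**Figure D4:**
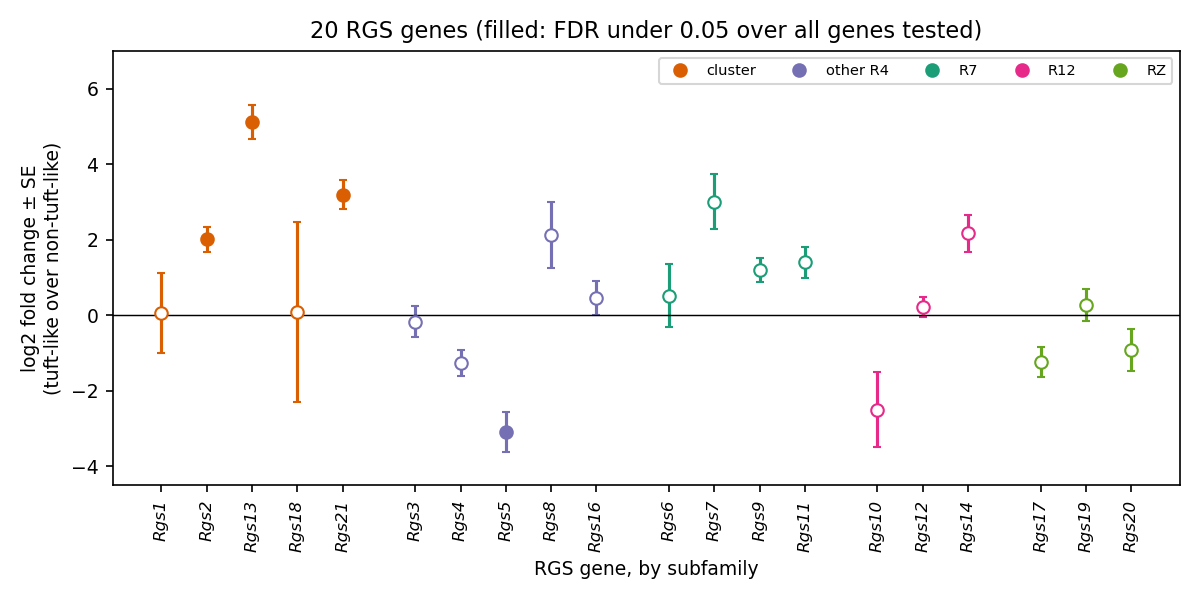
Log2 fold change of tuft-like over non-tuft-like mTEC with its SE (n = 3 per group) for 20 RGS genes by subfamily, with filled points for an FDR under 0.05. The cluster genes Rgs13 (5.12) and Rgs21 (3.19) stand highest and Rgs5 (-3.10) lowest.

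The alpha subunits comprised 8 genes of the Gi family, 4 of the Gq family and 4 of the other classes. Of these 16, 2 were called higher and 0 lower (1.16% and 0.951% of all genes). For 7 of them the unadjusted edgeR p was under 0.05 (8.97% of all genes), and the median log2 fold change was 0.19. Gnat3, the Gi family alpha subunit of taste cells, had 2045, 3150 and 2953 CPM in the tuft-like and 155, 196 and 139 in the non-tuft-like libraries (log2 fold change 4.06, SE 0.40, edgeR FDR 0.0008). Gna14, a Gq family member, had 47.8, 63.4 and 92.0 against 17.9, 14 and 12.5 CPM (2.20, SE 0.36, edgeR FDR 0.0100) and was no longer called when non-tuft-like replicate 2 was left out (2.16). The widely expressed Gi subunits Gnai2 (log2 fold change 1.19, SE 0.45, edgeR FDR 0.36) and Gnai3 (-1.06, SE 0.25, FDR 0.0680) were not called. Gnao1 had a log2 fold change of -0.76 (SE 0.36, FDR 0.610). Gnaq (0.36, edgeR FDR 1.0) and Gna11 (0.61, FDR 0.815), the ubiquitous Gq subunits, and the blood cell form Gna15 (-2.57, FDR 0.0817) were not called.

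Of 16 beta and gamma subunits, 15 were tested, with 2 called higher and 1 lower (1.16% and 0.951% of all genes). The beta subunit Gnb3 and the gamma subunit Gng13, the partners of gustducin in taste cells, had log2 fold changes of 3.58 (SE 0.45, edgeR FDR 0.0021) and 4.15 (SE 0.40, FDR 0.0007). Gnb4 had 29.1 ± 5.22 CPM in tuft-like against 131 ± 14 CPM in non-tuft-like libraries (SD, n = 3; -2.17, SE 0.28, edgeR FDR 0.0028). Gnb1 (0.78, edgeR FDR 0.505), Gnb2 (0.74, FDR 0.532) and Gng12 (0.53, FDR 0.781) missed the threshold.

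Rgs2 is an early response gene in several cell types, and such genes rise when cells are stressed during isolation. Of 18 immediate early genes edgeR called 0, 2 had an unadjusted p under 0.05 (1 higher, 1 lower), DESeq2 called 2 (Jund higher, Ier3 lower), the likelihood ratio test 1 (Ier3) and limma voom 0. Over all genes edgeR called 2.11%, 8.97% had such an unadjusted p and DESeq2 called 10.6%, so these counts are near the background. Their median log2 fold change was 0.07. Jun, the most abundant, had 1984, 2436 and 4771 CPM in the tuft-like and 2693, 2578 and 3150 in the non-tuft-like libraries (log2 fold change 0.13, SE 0.45, edgeR FDR 1.0). Tuft-like replicate 3 had the highest level of both Jun and Rgs2. The part of dissociation in the Rgs2 values of that or any other library was not tested.

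Markers of the blood cells in which members of the cluster are known were measured in the same libraries. The 10 mast cell and basophil markers summed to 68.3 to 192.8 CPM in tuft-like and 254.3 to 438.0 CPM in non-tuft-like libraries, most of it Hdc. Without Hdc the other 9 summed to 24.9, 11.8 and 0.166 CPM in tuft-like replicates 1, 2 and 3, while the non-tuft-like libraries had 13.5, 3.15 and 14.7 CPM. Cpa3 had 126, 111 and 0 counts in the tuft-like replicates against 18, 13 and 59, Ms4a2 had 105, 165 and 0 against 17, 42 and 140, and Fcer1a had 81, 39 and 0 against 0, 0 and 98. Tpsb2 went the other way with 0, 2 and 0 against 85, 89 and 9, as did Tpsab1 with 106, 16 and 3 against 171, 0 and 85. Of 8 tested, 5 had a higher and 3 a lower tuft-like log2 fold change, and edgeR called 0 (2.11% of all genes). An unadjusted edgeR p under 0.05 was found for 2, both lower (8.97% of all genes). These markers thus varied within each group and 7 of the 10 were at 0 in tuft-like replicate 3. Rgs13 had 552.1, 747.5 and 820.2 CPM in the same tuft-like libraries. The 5 B cell markers summed to 63.2 to 101.8 CPM in tuft-like against 16.5 to 24.3 CPM in non-tuft-like libraries. The only one of these 5 called was Cd79b, with 47.9, 83.5 and 101.5 against 8.58, 11.4 and 5.28 CPM (log2 fold change 3.20, edgeR FDR 0.0032). Over all genes tested, 1.16% were called higher and 0.951% lower, which also applies to the lists below. Cd79b made up most of the sum, and the other 4 summed to 15.4, 16.2 and 0.304 CPM in the tuft-like and 7.89, 5.90 and 19.1 CPM in the non-tuft-like replicates. Cd79a had 39, 50 and 0 counts in tuft-like replicates 1, 2 and 3 against 38, 64 and 28 among non-tuft-like libraries, and Ms4a1 had 212, 236 and 1 against 168, 95 and 293. The 9 platelet and megakaryocyte markers summed to 11.4 to 25.1 CPM in tuft-like and 14.4 to 24.8 CPM in non-tuft-like libraries, overlapping as Rgs18 did. Thymocyte markers (8) summed to 37.5 to 56.0 CPM in tuft-like against 21.6 to 37.6 CPM in non-tuft-like libraries, with Themis the most abundant. Without Themis the other 7 summed to 37.4, 23.5 and 11.0 CPM in tuft-like replicates 1, 2 and 3. The non-tuft-like replicates had 19.4, 32.1 and 19.2 CPM, so these sums overlapped. Macrophage and dendritic cell markers (7) summed to 131.8 to 189.8 against 220.4 to 352.9 CPM, mostly Lyz2, with Cd68 called lower (log2 fold change -3.30, edgeR FDR 0.0028). General leukocyte markers (4) summed to 279.0 to 373.2 against 416.8 to 527.0 CPM, mostly Laptm5, with Cd52 called lower (-2.94, edgeR FDR 0.0022). Of these 4, 3 had a lower and 1, Ptprc, a higher tuft-like log2 fold change (1.42, edgeR FDR 0.610). Ptprc had 33.7, 27.6 and 8.31 CPM in the tuft-like and 3.41, 10.9 and 11.7 CPM in the non-tuft-like replicates, which overlapped. No marker of these lists was at 0 in all tuft-like libraries. Above the olfactory receptor 99th percentile in all tuft-like libraries were 1 of 10 mast cell and basophil and 1 of 5 B cell markers. The platelet (9) and thymocyte (8) lists had 0 such markers, and the macrophage (7) and leukocyte (4) lists 2 each. In all non-tuft-like libraries these numbers were 1, 1, 1, 0, 2 and 3. Tuft-like replicate 3 had the fewest genes with a count (24233). The part of blood cells in the levels of the 5 members was not tested.

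As a description, the genes with the pattern most like each member were taken from the 11593 genes averaging 10 CPM or more, by Pearson r of log2(CPM + 1) over the 6 libraries. For Rgs13 they were Gm19817 (1.0), Trpm5 (0.999) and Tmem245 (0.999), for Rgs21 Pot1a (0.999), Anxa4 (0.999) and Klhl5 (0.998), and for Rgs2 Atp23 (0.998), Bptf (0.997) and Ahnak2 (0.997). The 6 points of each correlation share libraries and fall into the 2 sorted groups, so any gene with a large difference scores high, and 360, 408 and 404 genes reached an r of 0.95 with Rgs13, Rgs21 and Rgs2. Between the members themselves r was 0.992 for Rgs2 with Rgs21, 0.985 for Rgs13 with Rgs21 and 0.962 for Rgs2 with Rgs13. Rgs1 was closest to Wwox (0.982), Ccdc187 (0.979) and Tmem35b (0.974), with 5 genes at 0.95 or more, and Rgs18 to Fam122b (0.952), Ankrd44 (0.941) and Napb (0.933), with 1 such gene.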

How the data were processed

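Gene expression was measured by RNA-seq in 3 tuft-like and 3 non-tuft-like mTEC libraries (SMARTer Ultra Low Input kit per the labels). The deposited values are whole counts per gene. To make them, the authors trimmed reads with Trimmomatic 0.36, aligned them with STAR 2.7.3a to mm10 and counted with HTSeq in its intersection-nonempty mode, in which a read that stays ambiguous between genes is not counted. Strand setting and annotation release are not given in the sources used here. Of 52636 gene rows, 52489 (99.7%) matched GENCODE release M21 by identifier, from which names, positions and exon lengths were taken. Rows that name no gene held 19.7% to 61.6% of reads as no feature and were left out of library sizes.

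Genes were filtered with filterByExpr (minimum count 10, minimum total 15) and tested with the edgeR 4.0.16 quasi-likelihood test on TMM factors, with Benjamini-Hochberg adjustment over the 32496 genes kept. The SE of a log2 fold change was computed as its size divided by the square root of the F statistic. R 4.3.3 was used for the fits and matplotlib 3.10.9 for the plots. DESeq2 1.42.0, limma 3.58.1 voom, the edgeR likelihood ratio test, other scalings and filters, a replicate block and leaving out each library were alternatives. The procedure was tested on simulated data. Subtraction of the olfactory receptor background and the longest coding transcript as length were added after seeing the data. Replicate numbers were shared between the groups, but deviations of same-numbered libraries correlated at -0.096, -0.038 and -0.274, so they were not taken as pairs. No 2 libraries were duplicates, with at most 0.860% equal counts. Total counts of 20097617 to 48369825 per library set the counting precision, and the common biological coefficient of variation was 1.10. Intervals of detection cover counting error only.

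The members and gene lists were chosen with earlier results of these data known. A further marker of the B cell list is not reported here. Genes named were all members with every library, in each RGS, G protein and immediate early list the genes called and up to 3 others of highest mean CPM, the nearest tested coding gene beside the cluster, and the 3 genes most like each member. Other genes, such as Rgs8, Cd79b, Cd68, Cd52, Ptprc, Jund and Ier3, were named after their values were seen.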

Additional observations from a re-analysis of the deposited data

How the results depend on the processing

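The number of members called stayed at 3 under other scalings, tools and filters and under the replicate block, and was 2 to 3 when 1 library was left out. The log2 fold change of Rgs13 was 4.78 to 5.34, of Rgs21 2.79 to 3.43 and of Rgs2 1.62 to 2.20 with 1 library left out. Genes beside the cluster stayed at 0 calls throughout. Calls among the other 15 RGS genes depended on the setting, with 1 in the reported fit, 2 with relative log expression factors or limma voom, 3 with library size alone, with the filter of at least 1 CPM in 3 libraries or with the replicate block, 4 with the likelihood ratio test or no filter, 6 with DESeq2, and 1 to 3 leaving out 1 library. Rgs5 was among them each time and Rgs4 or Rgs14 joined most often. The 6 calls of DESeq2 were Rgs7, Rgs9, Rgs11 and Rgs14 higher and Rgs4 and Rgs5 lower. Alpha subunit calls went from 2 to 6 with DESeq2 and 4 with the likelihood ratio test, and to 1 to 3 leaving out 1 library. Immediate early calls went from 0 to 2 with DESeq2, 1 with the likelihood ratio test and 1 with the 1 CPM filter, and to 0 to 1 leaving out 1 library. The cause of these changes was not tested.

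The replicate block, whose numbers are not known to pair the libraries, called 737 genes against 687 without it, and ended the call of Gnb3 (log2 fold change 3.57). Rgs18 turned to -3.18 with the block and to -1.06 with limma voom, and ranged from -4.37 to 0.63 leaving out 1 library. It could not be fitted with the 1 CPM filter, and DESeq2 gave no adjusted p. Rgs1 turned to -0.49 after subtraction of the olfactory receptor background and ranged from -0.34 to 0.53 leaving out 1 library. Leaving out 1 library also turned the sign of Rgs16 (-0.28 to 0.73), Rgs3 (-0.71 to 0.11), Rgs19 (-0.28 to 0.49), Jun (-0.38 to 0.36) and Uchl5 (-0.40 to 0.14), none of them called. Over all named genes the settings other than leaving out a library kept direction and call in 242 cases, gained a call in 29, lost 1 and turned the sign in 3. Rgs18 and Rgs1 had low counts, at most 28 and 162 in a library.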
